A study of Mus musculus with 6 samples.

Results

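The genes described here make cholesterol and fatty acids, sense sterols or export cholesterol, and were followed in mouse splenic B cells with and without stimulation of the antigen receptor. They are 37 genes named by function, listed with earlier results of these data known. Of these, 33 had an array probe assigned to that gene alone, out of 19057 genes with such a probe, and 31 were bright enough to test, out of 11855 genes tested. The probe that stands for a gene was selected on measured values: of the gene's probes, the one brightest on average over all 6 arrays was kept, without regard to group. Acat2, Hmgcs1, Fdft1 and Nr1h2 had no such probe and their levels were not analysed here. Acaca, which makes malonyl-CoA, and Abca1, a cholesterol exporter, were below the array median on all 6 arrays and were not tested.

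B lymphocytes were purified from spleens of C57BL/6 mice aged 8 weeks, and 3 untreated samples were compared with 3 that received anti-IgM. This reagent, F(ab')2 fragments of a goat antibody, binds and cross-links the antigen receptor, and was used at 2.5 µg/ml for 3 h. IL-4 (5 ng/ml) and CD40L (200 ng/ml) also appear in the protocol without being assigned to samples, so their effects and those of anti-IgM cannot be told apart if only the stimulated cells received them. The labels do not say how the B cells were purified, whether mice were pooled, or whether each replicate is its own mouse or culture. The p-values therefore rest on a spread among samples that may be technical.

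Cholesterol is built from acetyl-CoA through mevalonate, the isoprenoids and squalene, and squalene is closed into lanosterol and then trimmed and reduced to cholesterol. When membranes are short of sterol, the carrier SCAP takes SREBP transcription factors from the endoplasmic reticulum to the Golgi, where they are cleaved and released to switch on genes of sterol and fatty acid synthesis. INSIG proteins hold SCAP back when sterol is plentiful, and oxysterols activate LXR receptors, which switch on cholesterol export. Lymphocytes that leave rest need lipid for new membrane.

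One Illumina bead array was used per sample. Levels below are log2 normalized intensities, and changes are log2 differences (stimulated less untreated) with the SE that limma gives for n = 3 against 3. The median array intensity was between 72.81 and 72.84, which is 6.19 on the log2 scale, and the median SE of a change was 0.15, a precision set by how few arrays there are. The first principal component held 84.9% of the variance and parted the groups, and the next held 8.53% and parted the replicate 1 arrays of both groups from the rest. Of 7 measured B cell markers all were above the array median on all 6 arrays, led by Cd79b at 14.57 ± 0.05 (SD, n = 3) in untreated samples, and 6 of the 7 were lower with anti-IgM. Among markers of other cells, 1 of 9 tested for macrophages and 2 of 5 for neutrophils fell, 1 rose and 1 fell of 3 each for dendritic and NK cells, and none passed for T cells (5), erythroid cells (2) or platelets (3). By the same test, 23.2% of all genes tested rose and 23.9% fell. Itgax, Cd8a and Ncr1 were at background on all arrays, and the part of other cells in the results was not tested. In such bulk samples, fewer cells of a type and less RNA per cell cannot be told apart.

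Of the 31 genes tested, 15 rose and 4 fell at an adjusted p under 0.05 (limma, Benjamini-Hochberg over all genes tested), while 12 did not pass. Over all 11855 genes tested, 47.1% passed, 23.2% having risen and 23.9% fallen. The median change of the 31 genes was 0.50, against 0.02 for all genes. At least a 2-fold rise was seen in 8 of the 31 and a fall of that size in 1, where the shares over all genes tested were 9.37% and 10.5%. The groups did not overlap in 15 genes that were higher and 4 that were lower with anti-IgM, against 27.8% and 26.9% of all genes. Abcg1 is the gene with the 2-fold fall and is among the 4 in each count of lower genes. It was bright enough to test through the untreated samples alone, so only a fall could bring it into these counts. The rises lay mostly in the sterol arm, where 9 of 15 tested synthesis genes rose and 1 fell. In the fatty acid arm 2 of 9 rose and 1 fell, shares no larger than the 23.2% and 23.9% of all genes. The difference between the arms was not tested.

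**Figure D1:**
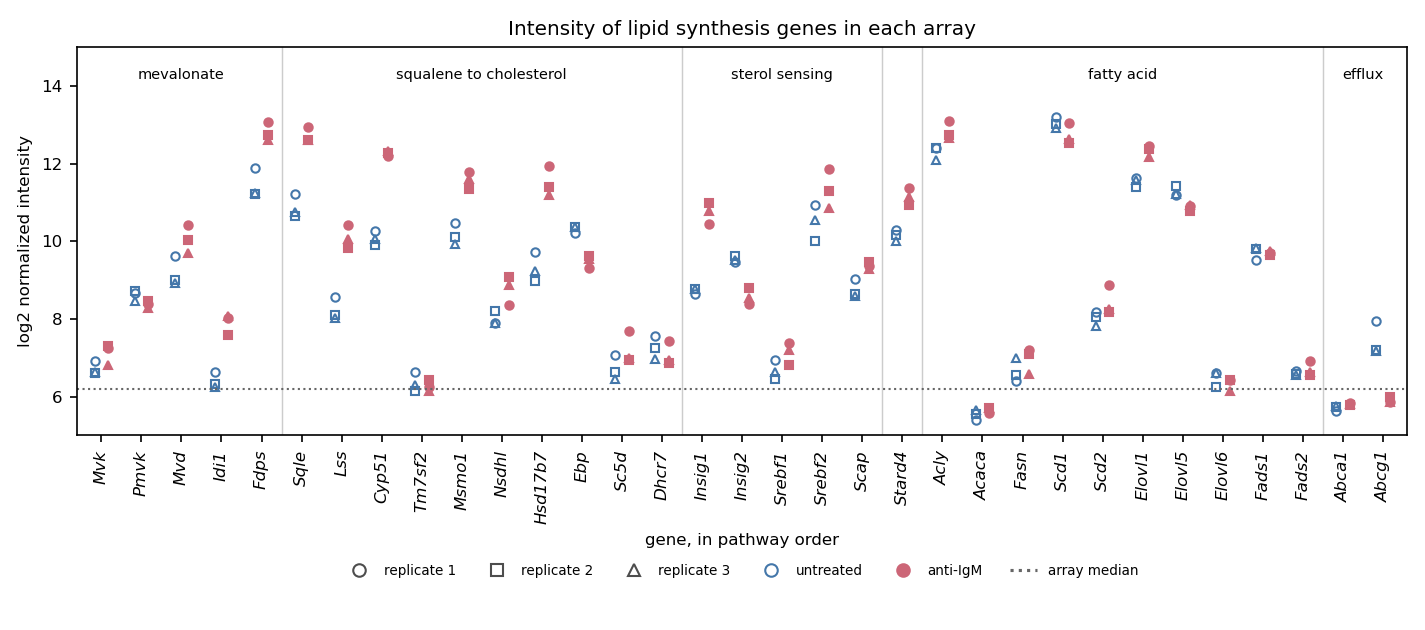
Log2 normalized intensity (vertical axis) of the 33 genes with a probe (horizontal axis, in pathway order) on each array, untreated as open and anti-IgM as filled symbols, with replicates by shape and the array median as a dotted line. Cyp51, Sqle, Lss and Hsd17b7 show anti-IgM samples well above all untreated samples, while Acaca and Abca1 lie under the array median throughout.

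Among the 5 measured genes that lead from acetyl units to farnesyl diphosphate, 3 rose and none fell, where 23.2% and 23.9% of all genes tested did. Idi1, which isomerises isopentenyl diphosphate, read 6.63, 6.33 and 6.25 in untreated replicates 1, 2 and 3 and 8.03, 7.58 and 8.09 with anti-IgM. The untreated values sat just above the array median and the groups did not overlap, with a rise of 1.49 ± 0.18 (2.81-fold; adjusted p = 6.24e-05, limma). Folds of such dim genes depend on how background is treated, and the rise of Idi1 was 2.31 once each array's 1st percentile was subtracted.

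Fdps, which makes farnesyl diphosphate for both sterols and protein prenylation, was bright already in untreated samples, at 11.88, 11.21 and 11.23. It read 13.07, 12.75 and 12.60 with anti-IgM, all above the untreated range, a rise of 1.36 ± 0.18 (adjusted p = 0.00011, limma). A dimmer Fdps probe changed by 0.40 ± 0.23 and did not pass (adjusted p = 0.204 over all probes), and the mean of both probes rose by 0.88.

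Mvd, the decarboxylase that forms isopentenyl diphosphate, read 9.63, 9.01 and 8.91 untreated and 10.43, 10.04 and 9.70 with anti-IgM. It rose by 0.87 ± 0.22 (adjusted p = 0.0068, limma), with replicate 1 the highest array in both groups. The kinase genes of the same stretch did not pass. Mvk, mevalonate kinase, changed by 0.39 ± 0.18 (95% interval 0.0036 to 0.78; adjusted p = 0.0931, limma). With the replicate number as a block its adjusted p was 0.0348, and without anti-IgM replicate 3 it was 0.0269. Pmvk, the next kinase, changed by −0.23 ± 0.14 (95% interval −0.54 to 0.07; adjusted p = 0.194, limma).

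From squalene to cholesterol, 6 of 10 measured genes rose and 1 fell, and 5 of the 6 rose at least 2-fold. Of all genes tested, 23.2% rose, 23.9% fell and 9.37% rose at least 2-fold. Hsd17b7, a ketosteroid reductase of the steps that strip methyl groups from lanosterol, had a fitted rise close to that of Cyp51, and which of the 2 was larger changed with the array left out. It read 9.73, 8.96 and 9.24 in untreated samples and 11.93, 11.40 and 11.20 with anti-IgM. The lowest anti-IgM array lay well above the highest untreated one, and the rise of 2.20 ± 0.22 (4.59-fold; adjusted p = 1.18e-05, limma) ranked 140 among the 11855 genes tested. Another Hsd17b7 probe, above the array median on only 1 array, was not tested, so the rise rests on 1 probe.

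Cyp51, the lanosterol demethylase, read 10.27, 9.90 and 10.06 untreated and 12.19, 12.26 and 12.31 with anti-IgM. Its anti-IgM arrays differed among themselves by little, and its rise of 2.18 ± 0.11 (4.53-fold; adjusted p = 1.33e-07, limma) had the smallest p of the 31 genes. Lss, which closes the ring system of lanosterol, read 8.57, 8.09 and 8.01 against 10.43, 9.83 and 10.07. It rose by 1.88 ± 0.19 (adjusted p = 1.3e-05, limma), though a probe close to the array median changed by only 0.27 ± 0.17 and the mean of both tested probes by 1.08.

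Sqle, the squalene epoxidase and a rate-limiting enzyme of the late pathway, read 11.23, 10.65 and 10.75 untreated and 12.93, 12.60 and 12.60 with anti-IgM. The groups did not overlap and the rise was 1.83 ± 0.15 (3.56-fold; adjusted p = 3.7e-06, limma). A second Sqle probe rose by 2.05 ± 0.20. Where single probes are compared, calls are adjusted over all 23505 probes tested, of which 42.2% passed in either direction. Msmo1, the methyl sterol monooxygenase that acts with Nsdhl, read 10.46, 10.10 and 9.94 against 11.77, 11.35 and 11.60. It rose by 1.41 ± 0.15 (adjusted p = 2.25e-05, limma).

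Nsdhl, the X-linked decarboxylating dehydrogenase of the same complex, rose less, by 0.77 ± 0.19 (adjusted p = 0.00701, limma), from 7.91, 8.19 and 7.89 to 8.35, 9.07 and 8.87. All 4 of its tested probes rose, by 0.62 to 0.84. Within numbered pairs its change was 0.45 in pair 1 and 0.88 and 0.98 in the others.

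The gene that fell among the synthesis enzymes was Ebp, the sterol isomerase that moves a double bond late in the pathway. It read 10.22, 10.37 and 10.37 untreated and 9.31, 9.61 and 9.55 with anti-IgM. All anti-IgM samples lay below all untreated ones, and the change was −0.83 ± 0.12 (1.78-fold lower; adjusted p = 0.000153, limma). Dhcr7, Tm7sf2 and Sc5d, which also act on the way from lanosterol, did not pass.

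Dhcr7, which makes cholesterol from its last precursor on one branch, changed by −0.18 ± 0.21 (95% interval −0.64 to 0.28; adjusted p = 0.531), and Tm7sf2, a sterol reductase near the array median, by −0.10 ± 0.15 (adjusted p = 0.668, limma). Tm7sf2 changed sign, to 0.043, without untreated replicate 1. Sc5d, the desaturase before Dhcr7, changed by 0.50 ± 0.23 (adjusted p = 0.105). It was higher with anti-IgM in all 3 numbered pairs (0.61, 0.32 and 0.55), which was so for 4150 of the 11855 genes tested. With the replicate block Sc5d passed (adjusted p = 0.00729, limma). It also passed without untreated replicate 1 (0.67; adjusted p = 0.0311), and was 0.26 without anti-IgM replicate 1.

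**Figure D2:**
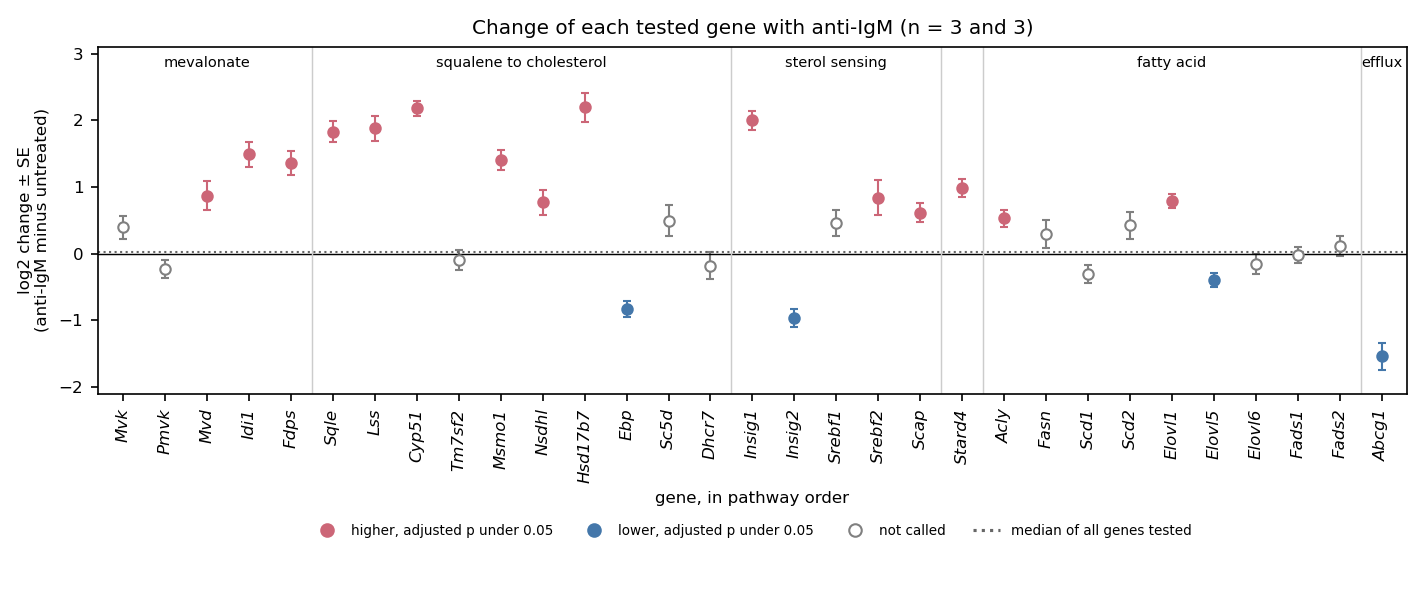
Log2 change ± SE (vertical axis, anti-IgM minus untreated, n = 3 in each group) of the 31 tested genes in pathway order, coloured by call at an adjusted p under 0.05. Rises near 2 are those of Sqle, Lss, Cyp51, Hsd17b7 and Insig1, and Ebp, Insig2, Elovl5 and Abcg1 are the 4 called lower.

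Genes that sense sterols split. The 2 INSIG genes, whose products do the same work of holding SCAP back, changed in opposite directions. Insig1, itself a known target of SREBP, read 8.65, 8.78 and 8.77 untreated and 10.43, 10.98 and 10.78 with anti-IgM. The untreated samples were close together and all lay far below the stimulated ones, with a rise of 2.0001 ± 0.14 on the log2 scale (adjusted p = 1.22e-06, limma).

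Insig2, the form known in mouse liver to be lowered by insulin, read 9.47, 9.62 and 9.51 untreated and 8.38, 8.80 and 8.53 with anti-IgM. Again the groups did not overlap, and the change was −0.96 ± 0.14 (1.95-fold lower; adjusted p = 0.000176, limma). Other probes went the same way in each gene: 2 further Insig1 probes rose, by 1.96 and 1.21, and 1 further Insig2 probe changed by −0.65 ± 0.14. Probes below the array median on all arrays, 1 for each gene, were not tested.

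Srebf2, the SREBP gene most tied to sterol synthesis, read 10.93, 10.002 and 10.54 untreated and 11.86, 11.28 and 10.85 with anti-IgM, and the groups overlapped. It rose by 0.84 ± 0.26 (adjusted p = 0.0226, limma). The call was lost without untreated replicate 2 (adjusted p = 0.0953) or 3 (0.0626) and without anti-IgM replicate 1 (0.0576) or 2 (0.0609). A second Srebf2 probe with less spread rose by 0.85 ± 0.12 (adjusted p = 0.000204 over all probes). Within pairs the brightest probe was higher in 3 of 3, which was so for 4150 of the 11855 genes tested.

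Srebf1, whose products favour fatty acid genes, was dim, at 6.67 ± 0.24 (SD, n = 3) untreated and 7.13 ± 0.29 with anti-IgM. Its change of 0.46 ± 0.19 did not pass (adjusted p = 0.0745, limma), though the blocked fit called it higher (adjusted p = 0.0115), as did fits without untreated replicate 1 (0.0305) or anti-IgM replicate 2 (0.0293). Scap rose by 0.62 ± 0.14 (adjusted p = 0.00454, limma) at its brightest probe, but another probe changed by −0.05 ± 0.27 and the mean of both did not pass (0.28; adjusted p = 0.0827, limma). Stard4, a carrier that moves cholesterol between membranes, rose by 0.99 ± 0.13 (adjusted p = 9.51e-05, limma), from 10.30, 10.17 and 10.003 to 11.37, 10.93 and 11.13.

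**Figure D3:**
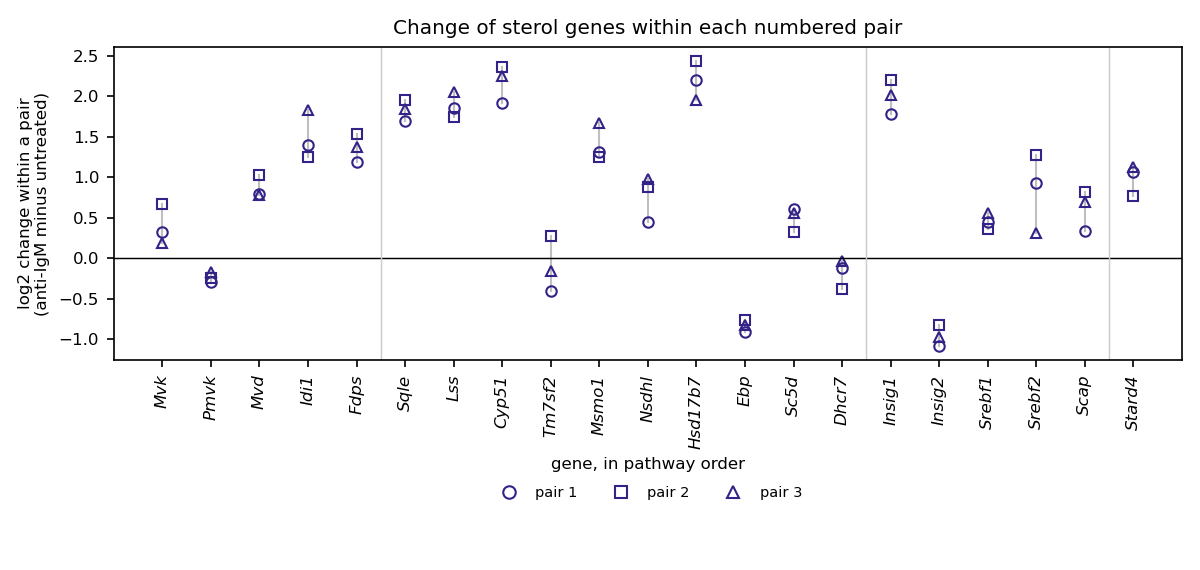
Log2 change within each pair of samples that share a replicate number (vertical axis, anti-IgM minus untreated) for the 21 tested genes of sterol synthesis, sensing and transport. In Hsd17b7, Cyp51, Sqle, Lss and Insig1 all 3 pairs lie above 1.7, and in Ebp and Insig2 all 3 lie below −0.7.

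**Figure D4:**
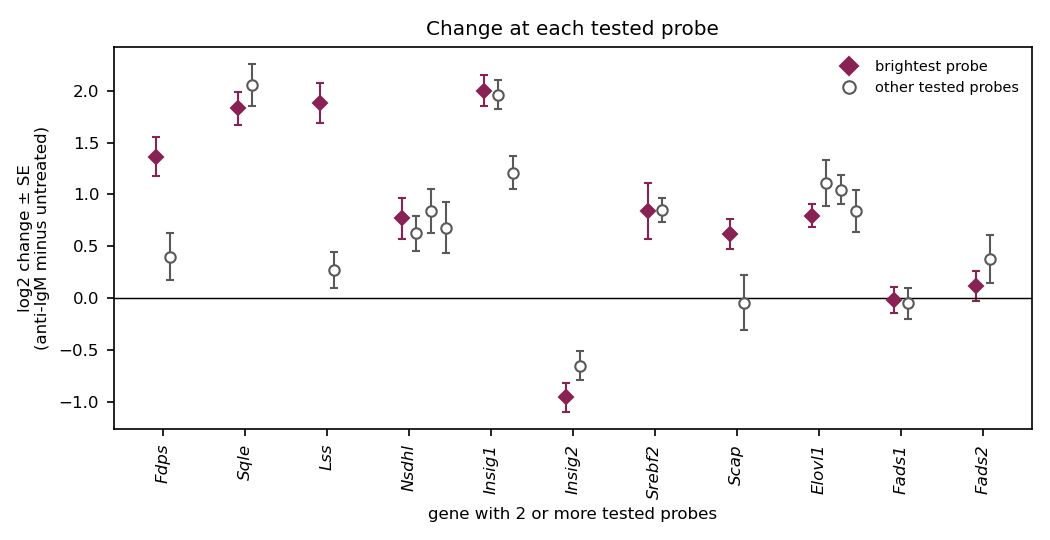
Log2 change ± SE (vertical axis, anti-IgM minus untreated) at each tested probe of the 11 genes with more than 1, with the brightest probe as a filled diamond. Probes of Sqle, Nsdhl, Insig1, Insig2, Srebf2 and Elovl1 share the direction of the brightest one, as do those of Fdps and Lss with smaller changes, whereas the second Scap probe lies near 0.

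Promoter sequence was examined because 9 of the 15 tested sterol synthesis genes rose and SREBPs bind short elements near the start of transcription, usually beside NF-Y, a factor that binds CCAAT. RefSeq windows (GRCm38.p6) from 250 bases before to 50 bases after the start were given for 29 of the 37 genes. Searched on both strands were the sterol element TCACNCCAC, the E-box CACGTG, the NF-Y box CCAAT and the LXR direct repeat. Matches of different motifs did not overlap in these genes, and in Fasn 2 NF-Y boxes overlap each other. CCAAT was found in 22 of the 29 genes (75.9%) and in 42.7% of the 9580 tested genes with a window. At least 2 boxes in a window occurred in 41.4% of the 29 genes and in 16.1% of those tested.

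By direction, CCAAT was in 11 of 12 genes that rose, 3 of 3 that fell and 7 of 9 that did not pass. CACGTG was found in 7 of the 29 genes, or 24.1%, against 11.5% of tested genes. The sterol element was in 1 of the 29, Hmgcs1, which had no probe, and in 1.35% of tested genes. It was in 0 of the 12 genes that rose, 0 of the 3 that fell and 0 of the 9 that did not pass. The LXR repeat was in none (0) of the 29 and in none (0) of the 9580 tested genes with a window. Of the genes that rose, Fdps, Sqle and Stard4 had no window to search.

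These stretches of 110 bases are shown because they belong to 4 of the genes that rose at least 2-fold (Hsd17b7, Cyp51, Idi1, Insig1). They also belong to 2 of the 4 genes that fell (Insig2, Ebp) and to the only holder of the sterol element (Hmgcs1). Each ends at the base before the annotated start except that of Hmgcs1, which ends 78 bases before it. Capitals mark NF-Y boxes (CCAAT, or ATTGG where the box is on the other strand), the E-box and the sterol element. Insig2 has 3 windows, and the one with most matches is shown.
Hsd17b7, chr1:169969206-169969315, minus strand: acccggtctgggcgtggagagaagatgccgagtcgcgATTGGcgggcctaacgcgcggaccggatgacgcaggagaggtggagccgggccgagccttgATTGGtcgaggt
Cyp51, chr5:4104698-4104807, minus strand: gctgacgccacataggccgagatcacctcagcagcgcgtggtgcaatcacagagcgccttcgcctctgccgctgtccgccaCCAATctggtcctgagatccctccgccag
Idi1, chr13:8885496-8885605, plus strand: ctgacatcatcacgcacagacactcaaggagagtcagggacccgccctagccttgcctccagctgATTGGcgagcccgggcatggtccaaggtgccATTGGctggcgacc
Insig1, chr5:28071302-28071411, plus strand: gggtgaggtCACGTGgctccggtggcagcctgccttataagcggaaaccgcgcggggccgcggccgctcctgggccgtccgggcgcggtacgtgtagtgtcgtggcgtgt
Insig2, chr1:121332590-121332699, minus strand: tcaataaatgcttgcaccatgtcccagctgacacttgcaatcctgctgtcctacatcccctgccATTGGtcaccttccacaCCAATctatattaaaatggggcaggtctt
Ebp, chrX:8193513-8193622, minus strand: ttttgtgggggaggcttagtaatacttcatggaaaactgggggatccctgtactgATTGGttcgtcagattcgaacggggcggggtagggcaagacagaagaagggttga
Hmgcs1, chr13:119690164-119690273, plus strand: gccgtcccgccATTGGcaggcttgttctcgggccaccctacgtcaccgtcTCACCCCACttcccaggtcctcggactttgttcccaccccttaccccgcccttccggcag

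The printed stretch of Insig1 holds 1 E-box and no NF-Y box, while that of Insig2 holds 2 NF-Y boxes. The Insig2 window was picked for its matches, and the other windows of Insig2 hold no NF-Y box or E-box. An NF-Y box of Insig1 lies farther out, from −216 to −212. Ebp, which fell, also holds an NF-Y box. These matches are a description of letters and not of bound sites, and no match says only that these letters are not in the window.

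**Figure D5:**
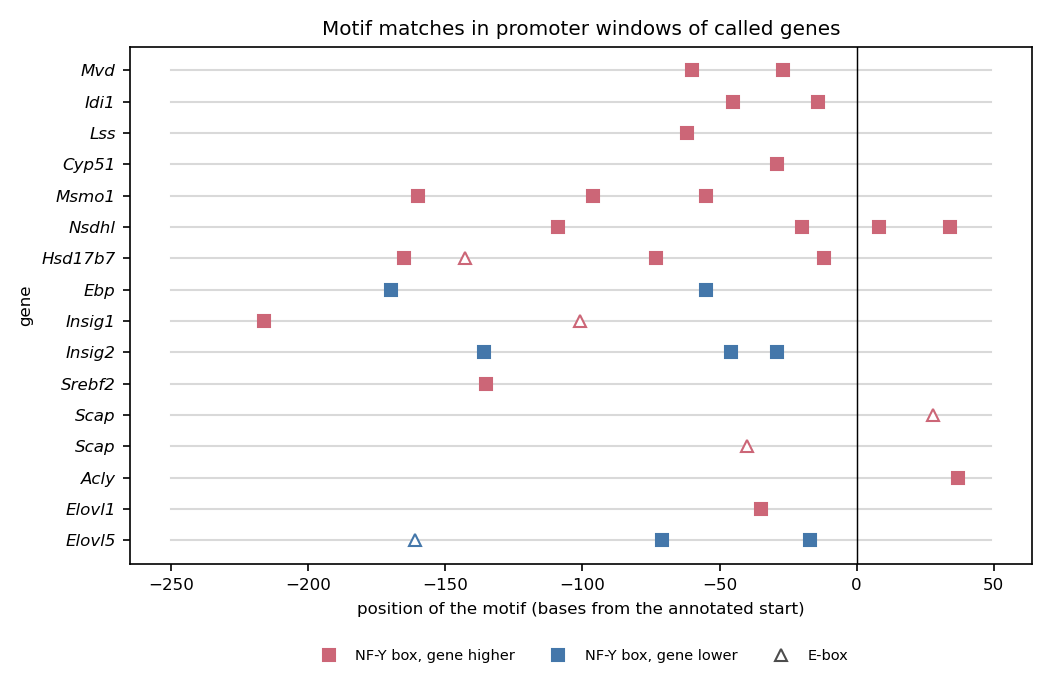
Positions of NF-Y boxes (filled squares) and E-boxes (open triangles) in promoter windows of genes called higher or lower that hold either, in bases from the annotated start (horizontal axis, 0 at the start). NF-Y boxes lie between −62 and the start in Mvd, Idi1, Lss, Cyp51 and Msmo1 among others, and also in Ebp, Insig2 and Elovl5, which fell; Scap has 2 overlapping windows.

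In the fatty acid arm most genes changed little or did not pass, with a median change of 0.11 over 9 tested. Elovl1, which lengthens saturated and monounsaturated chains to very long ones, read 11.64, 11.39 and 11.56 untreated and 12.45, 12.37 and 12.16 with anti-IgM. The groups did not overlap, the rise was 0.79 ± 0.11 (adjusted p = 0.000113, limma), and its 3 other probes rose by 0.84 to 1.11.

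Acly, which makes the cytosolic acetyl-CoA used by both arms, rose by 0.53 ± 0.13 (adjusted p = 0.00661, limma), from 12.40, 12.41 and 12.09 to 13.09, 12.74 and 12.66. Elovl5, which lengthens polyunsaturated chains, changed the other way, by −0.40 ± 0.10 (adjusted p = 0.00838, limma). It read 11.19, 11.43 and 11.21 untreated and 10.91, 10.78 and 10.94 with anti-IgM, again without overlap.

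Scd1 and Scd2 encode desaturases that put the first double bond into saturated fatty acids. Scd1, the brightest of all 31 genes untreated, read 13.19, 13.03 and 12.92 and then 13.04, 12.54 and 12.63. Its change of −0.31 ± 0.13 did not pass (adjusted p = 0.0891) but was called lower in the blocked fit (adjusted p = 0.0072) and without anti-IgM replicate 1 (−0.46; adjusted p = 0.00395, limma).

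Scd2 read 8.17, 8.04 and 7.82 and then 8.88, 8.17 and 8.24, an order in which the groups just failed to overlap. Its change of 0.42 ± 0.20 did not pass (adjusted p = 0.113, limma), and the blocked fit called it higher (adjusted p = 0.0123). Without anti-IgM replicate 1 it was 0.20. With the block, the fatty acid arm had 3 genes called higher and 2 lower, and 54.0% of all genes were called. Without both replicate 1 arrays Scd1 was called (adjusted p = 0.00309) and Scd2 was not.

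Fasn, the fatty acid synthase itself, was dim, with a range of 6.41 to 6.998 untreated and 6.57 to 7.21 with anti-IgM. Its change of 0.30 ± 0.21 did not pass (95% interval −0.17 to 0.77; adjusted p = 0.293, limma), so a rise of up to that upper bound is not set aside by these arrays. The desaturases of polyunsaturated fats also did not pass, with Fads1 at −0.02 ± 0.12 (95% interval −0.28 to 0.24) and Fads2 at 0.11 ± 0.15 (95% interval −0.21 to 0.44). Elovl6, which extends palmitate, changed by −0.15 ± 0.15 close to the array median.

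Of the cholesterol export genes only Abcg1, a transporter that hands cholesterol to lipoproteins and a known LXR target, could be tested. It read 7.94, 7.21 and 7.18 untreated and 5.86, 5.99 and 5.86 with anti-IgM, where no sample was above the array median. It was therefore at least 2.39-fold lower (measured change −1.54 ± 0.20; adjusted p = 9.62e-05, limma). It passed the filter on dim probes through the untreated samples alone. Adgre1, a macrophage marker, changed in the same samples by −2.098 ± 0.22, while the other 8 of 9 measured macrophage markers did not pass. The summed intensity of those 9 ran from 1828 to 6152 in untreated and from 1729 to 2824 in anti-IgM samples. Lyz2, the brightest of them, read 9.72, 11.78 and 12.27 untreated and 9.75, 10.32 and 10.92 with anti-IgM. The part of these markers in the Abcg1 result was not tested.

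A second list of 30 genes of lipid supply, sensing and handling had 22 tested members, of which 10 rose and 6 fell, where 23.2% and 23.9% of all genes did. Their median change was 0.07. Acsl3, which activates long-chain fatty acids, rose by 1.83 ± 0.15, from 8.66, 8.24 and 8.22 to 10.35, 10.13 and 10.13. Hsd17b12, a reductase of fatty acid elongation, rose by 1.44 ± 0.12, and Aacs, which returns acetoacetate to lipid synthesis, by 1.37 ± 0.20. Slc25a1, the mitochondrial citrate carrier that feeds ATP-citrate lyase, rose by 1.16 ± 0.15. The largest of these 4 adjusted p-values was that of Aacs (0.00023, limma).

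The largest falls in that list were in genes of acetate use, lysosomal lipid release and sterol turnover. Acss2, which makes acetyl-CoA from acetate and is a known SREBP target, changed by −1.51 ± 0.21 (adjusted p = 0.000123, limma), from 8.26, 8.37 and 7.76 to 6.40, 6.92 and 6.55. All its anti-IgM values lay below all its untreated ones, opposite to most sterol synthesis genes. Lipa, the lysosomal acid lipase, changed by −1.50 ± 0.14, and Cyp27a1, a sterol hydroxylase, by −0.87 ± 0.16. Mylip, an LXR target that degrades lipoprotein receptors, was above the array median in all untreated and no anti-IgM samples and was at least 1.83-fold lower. Nr1h3, which encodes an LXR receptor and was named after its values were seen, changed by −0.17 ± 0.18 and did not pass.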

How the data were processed

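RNA of 6 samples was measured on 1-colour Illumina bead arrays. The intensity values used are the authors' deposited table, on a linear scale. Their array medians were nearly equal (72.81 to 72.84), so they were taken as already normalized between arrays. Neither the method nor any background step is named by the sources available. A table of unnormalized signals, with 6 columns whose names match no sample label, was not used. Intensities were taken as log2. A probe was tested when above the array median on at least 3 of 6 arrays (23505 of 45281 probes). Symbols are those of the platform annotation (34885 probes with 1 symbol, 18 with several, 10378 not listed), and 34807 matched RefSeq by Entrez ID. Each gene kept its brightest tested probe.

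The comparison used limma 3.58.1 under R 4.3.3. A linear model with group as its sole term was moderated by eBayes with trend, p-values are two-sided, and Benjamini-Hochberg adjustment ran over 11855 genes (threshold 0.05). The fit was tested on simulated data. SEs have 10.1 degrees of freedom at the median gene. A gene above the array median on no array of 1 group is given as a bound, against the higher of the array median and its own value. Both groups carry replicate numbers 1 to 3, and deviations from group means correlated at 0.574, 0.245 and 0.291 within numbers 1, 2 and 3, all over 0.1. The numbers were treated as pairs on this basis, and a second fit included them as a block. Deviations cancel within a group of 3, so a shift shared by the replicate 1 arrays alone would raise all 3 correlations. No label says that the numbers are matched, and mismatched numbers were not compared. No 2 arrays were identical (0 pairs). Promoter windows came from RefSeq (GRCm38.p6), and no coordinates of probes are given. Figures used matplotlib 3.10.9 in Python 3.11.15. The members, lists and tests were chosen with earlier results of these data known. All 37 members are named, and of the second list the 4 largest called rises and falls. Promoters other than those of Hmgcs1, Insig1 and Insig2 were chosen for printing after values were seen.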

Additional observations from a re-analysis of the deposited data

How the results depend on the processing

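Across the alternatives run, the number of the 37 genes called higher ranged from 10 to 19 and the number called lower from 3 to 5, against 15 and 4 as reported. Testing against a log2 change of 0.5 (treat) gave 10 and 3, and 2777 of all genes in place of 5581. Leaving out 1 array at a time gave 14 to 17 higher, 3 to 5 lower and 4900 to 5421 of all genes. With the replicate block 19 were higher and 5 lower, and 6397 of all genes were called. The block added Mvk, Sc5d, Srebf1, Scd2 and Scd1 and changed no other call of the 37. Without both replicate 1 arrays, a choice made after seeing the data, the counts were 15 and 5, and 5876 of 12106 genes tested were called. Over single genes and alternatives, 463 of 490 values kept direction and side of the threshold, 11 lost the call, 11 gained it and 5 changed sign. The 5, none of them called, were Tm7sf2 without untreated replicate 1 (0.043; −0.20 to 0.043 over single arrays left out) and without both replicate 1 arrays (0.058), and Fads1 without untreated replicate 2 (0.017), untreated replicate 3 (0.039) or anti-IgM replicate 2 (0.0077), with a range of −0.11 to 0.039. The cause was not tested. Abcg1 was not tested when any untreated array was left out or when all 6 arrays had to exceed the median. Signal close to background limits Mvk, Idi1, Tm7sf2, Sc5d, Srebf1, Fasn, Elovl6, Fads2 and Abcg1. Their changes were all over 1.5 times larger with each array's 1st percentile subtracted, a step that by itself enlarges log2 changes of dim genes, called or not. For Abcg1, at background with anti-IgM, the bound alone is read.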

Other observations

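The replicate 1 arrays read high for many sterol genes in both groups at the brightest probe of each gene. Among untreated samples replicate 1 was the highest in 12 of the 15 tested sterol synthesis genes, against 41.6% of all genes tested. Among anti-IgM samples it was the highest in 8 of the 15, against 39.6%. In 8 of the 15, Fdps, Mvd, Sqle, Lss, Msmo1, Hsd17b7, Sc5d and Dhcr7, it was the highest in both groups, which was so for 23.3% of all genes tested. Second probes did not all share this: at the second Sqle probe replicate 1 was the lowest in both groups.

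Genes of the long-chain fatty acid elongation cycle other than the ELOVL enzymes went both ways. These genes and those that follow were named after their values were seen. The reductase Hsd17b12 rose, as did the dehydratases Hacd2 (1.03 ± 0.15) and Hacd3 (0.80 ± 0.09), while Tecr, the last reductase of the cycle, changed by −0.74 ± 0.10 (adjusted p = 0.000141, limma). Erg28, a scaffold of sterol demethylation in yeast, rose by 0.72 ± 0.10, and Npc2, which carries cholesterol out of lysosomes, changed by −0.75 ± 0.14. Of the proteases that release SREBPs, Mbtps2 rose by 0.55 ± 0.15 (adjusted p = 0.0113) and Mbtps1 changed by 0.16 ± 0.13 and did not pass (adjusted p = 0.368, limma).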
